A study of Homo sapiens with 14 samples.

Results

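KYSE510 cells, an established line of esophageal squamous cell carcinoma, were compared after transfection with the second of the siRNAs against EZH2, siEZH2-2, and with the negative control siNC. The comparison rests on 4 RNA libraries, 2 per siRNA, of the 14 samples in the series, and on the 11585 of 63677 listed genes whose mean reached 1 FPKM (counts scaled by gene length and sequencing depth) over the libraries of both EZH2 siRNAs and siNC. All groups were given siRNA by lipofection with RNAiMAX and were harvested after 48 hours. They were grown in RPMI-1640 with serum and antibiotics, and no group without transfection was analysed here. The line stands for 1 tumour, and a knockdown in culture lowers a transcript without removing it. The 2 libraries of siEZH2-1, which targets the same gene, entered the mean levels by which genes were kept and named, and the estimate of the spread. They also served to test where the effects of the 2 siRNAs differed. Their own change against siNC is given only as a median for a few groups of genes. No label says whether the 2 libraries of a group were separate cultures. The p-values therefore speak of the variation among these libraries alone, and that variation may be technical.

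EZH2 is the main catalytic subunit of Polycomb repressive complex 2 (PRC2), which places methyl groups on lysine 27 of histone H3. That mark is read by Polycomb repressive complex 1 and is known for holding developmental regulators silent. In squamous carcinomas EZH2 is often abundant, and its gene is a known target of the E2F factors that drive S phase. SLC7A5 encodes LAT1, the amino acid transporter that the same series silenced in other libraries, and SLC3A2 encodes its partner chain 4F2hc.

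Depth, estimated from the steps of 1 read in low FPKM values of short RNA genes, was 26260000 and 21160000 reads or fragments for siEZH2-2 and 24260000 and 23540000 for siNC. Replicates of each group correlated at 0.993 and 0.994 across genes. The cells carried the identity of their label, since 12 of 12 squamous markers had a mean of at least 1 FPKM. Among markers of other cells, 1 of 11 fibroblast, 1 of 15 immune and 0 of 8 endothelial markers reached that level, and the highest of these 3 sets was COL1A1 at a mean of 1.23 FPKM. In bulk RNA, fewer cells of a type and less RNA per cell cannot be told apart.

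EZH2 itself (ENSG00000106462) was read at 6.4 and 6.04 FPKM with siEZH2-2 and at 17.1 and 17.1 FPKM with siNC. Both siEZH2-2 libraries lay far below both controls, and 36.4% of the control level was left. The log2 fold change was -1.32 ± 0.0666 (SE, n = 2 against 2), with an adjusted p of 1.48e-04 (limma, Benjamini-Hochberg over all genes, as for every adjusted p here). All fold changes are on the log2(FPKM + 1) scale, which understates the change of genes of low level. The other siRNA brought EZH2 to 6.63 and 7.24 FPKM, and the difference between these remaining levels did not pass (siEZH2-2 minus siEZH2-1 -0.14, 95% interval -0.30 to 0.02, adjusted p = 0.223). SLC7A5 was read at 596 and 591 FPKM with siEZH2-2 and at 733 and 777 FPKM with siNC. It was lower in both siEZH2-2 libraries by a small step, with a log2 fold change of -0.35 ± 0.0554 (adjusted p = 0.00642), and that call was lost with no filter on low values (adjusted p = 0.0579, the highest of its alternatives). With siEZH2-1 the same transcript stood at 184 and 193 FPKM, so siEZH2-2 left it higher by 1.65 on the log2 scale (adjusted p = 8.66e-05). SLC3A2 was at 180.2 and 172 FPKM against 189 and 209 FPKM with siNC, a difference of -0.17 that did not pass (adjusted p = 0.107). It passed with quantile normalization (adjusted p = 0.0390) and with a block on crossed replicate numbers (adjusted p = 0.00428), and in the other alternatives adjusted p ran from 0.0895 to 1.0.

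Across all genes, 2874 passed an adjusted p of 0.05 (24.8% of genes tested). Of these, 1615 were higher with siEZH2-2 (13.9%) and 1259 were lower (10.9%). Most steps were small. The median fold change of all genes was 0.03, the quartiles were -0.13 and 0.18, and 71 called genes rose by at least 1 log2 unit (0.613%) while 73 fell by as much (0.63%). A count of genes whose siEZH2-2 and siNC values did not overlap was far larger, at 7278 (62.8%). The number of calls fell whichever library was left out, and such a fit has fewer libraries from which to estimate the spread. Lower counts with a library left out, here and in the lists below, therefore do not alone show that a result rested on that library. The number of calls was 1554 with no filter on low values. No gene called here had the opposite sign in any alternative. The plot of change against level shows that called genes spread over the whole range of expression.

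The largest changes are given for the 12 lowest and the 12 highest fold changes among called genes with an average log2(FPKM + 1) of at least 2 and no overlap between groups. That the groups are separate in each of these genes was thus a condition of the choice. The transcript that fell most was TGFBR2, the type II receptor that binds TGF-beta and starts its signal. It was read at 8.66 and 9.07 FPKM with siEZH2-2 and at 56.3 and 52.9 FPKM with siNC, so that 16.2% of the control level remained. The groups were far apart, with a log2 fold change of -2.49 ± 0.0628 and an adjusted p of 1.78e-05. THBS1, the matrix protein thrombospondin-1 that can activate latent TGF-beta, was at 34.3 and 40.1 FPKM against 132 and 122 FPKM, a log2 fold change of -1.74 ± 0.0877 (adjusted p = 1.48e-04). FZD6, a Frizzled receptor for Wnt ligands, was at 9.99 and 10.4 FPKM against 35.4 and 30.5 FPKM. UGCG, which makes glucosylceramide, was at 18.6 and 20.5 FPKM against 65.2 and 56.6 FPKM. Both were lower in each siEZH2-2 library than in each control, and both changed by -1.59 (adjusted p = 3.05e-04 and 2.98e-04).

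Other deep falls touched the cytoskeleton, secretion and the mitochondrial ribosome. CFL2, a cofilin that severs actin filaments, stood at 15.4 and 15.3 FPKM with siEZH2-2 and 47.9 and 44.1 FPKM with siNC (-1.52, adjusted p = 1.48e-04). TMED10, a cargo receptor of vesicles between the endoplasmic reticulum and the Golgi, was at 19.9 and 18.7 FPKM against 60.2 and 56.6 FPKM (-1.55, adjusted p = 1.38e-04). MRPL24, a protein of the large mitochondrial ribosomal subunit, was at 15.7 and 12.3 FPKM against 39.8 and 45.9 FPKM (-1.56, adjusted p = 4.37e-04). In each of these the 2 groups were separated by more than the distance between replicates. The long noncoding RNA LINC00657 (NORAD), known for binding Pumilio proteins, was at 29.6 and 33.3 FPKM against 95 and 83.8 FPKM (-1.48). ELK3, an ETS factor of the ternary complex family, was at 6.11 and 7.13 FPKM against 21.6 and 19.3 FPKM (-1.49). STK17B, a kinase related to death-associated protein kinase, fell from 6.69 and 5.35 FPKM to 1.13 and 1.32 FPKM (-1.65). The control libraries were the higher ones for all 3. LEPROT (-1.69), which shares its first exons with the leptin receptor gene so that reads may be split between them, and AMMECR1 (-1.66) complete the 12 lowest.

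Among the genes that rose, ZNF664, a zinc finger gene, went from 8.07 and 7.12 FPKM with siNC to 32 and 37 FPKM with siEZH2-2 (2.04 ± 0.091, adjusted p = 1.46e-04). OGFR, the opioid growth factor receptor, was at 23.3 and 21.2 FPKM against 4.59 and 5.07 FPKM (2.00 ± 0.0907, adjusted p = 1.48e-04). TPM4, a tropomyosin of actin filaments, was at 90.9 and 91.7 FPKM against 23.7 and 23.7 FPKM (1.90 ± 0.0459, adjusted p = 1.78e-05). The replicates of TPM4 were almost equal within each group, and the siEZH2-2 libraries were 3.86 times the controls. GANAB, the catalytic subunit of glucosidase II that trims glycans in the endoplasmic reticulum, was at 145 and 143 FPKM against 38.9 and 37.9 FPKM (1.88). NOLC1, a nucleolar phosphoprotein, was at 121 and 124 FPKM against 34.3 and 35.4 FPKM (1.78). ZW10, which acts at the kinetochore and in Golgi transport, was at 31.1 and 33.4 FPKM against 9.15 and 9.85 FPKM (1.66). In all 3 the siEZH2-2 libraries stood far above both controls. POLR2D, a subunit of RNA polymerase II, was at 33.2 and 32.8 FPKM against 11.9 and 11.7 FPKM (1.41). KRT15, a keratin of basal squamous cells, was at 97.9 and 78.8 FPKM against 30.8 and 35.9 FPKM (1.37). The spread between the siEZH2-2 replicates of KRT15 was wide, yet both stayed above both controls. ZNF138 (1.73), the splicing factor gene WBP4 (1.62), the G protein regulator RGS19 (1.51) and the endosomal syntaxin STX12 (1.48) complete the 12 highest. All 24 genes kept their calls in every alternative that tested them, except the test of a minimum log2 fold change of 1, which called 8 genes in all.

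**Figure D1:**
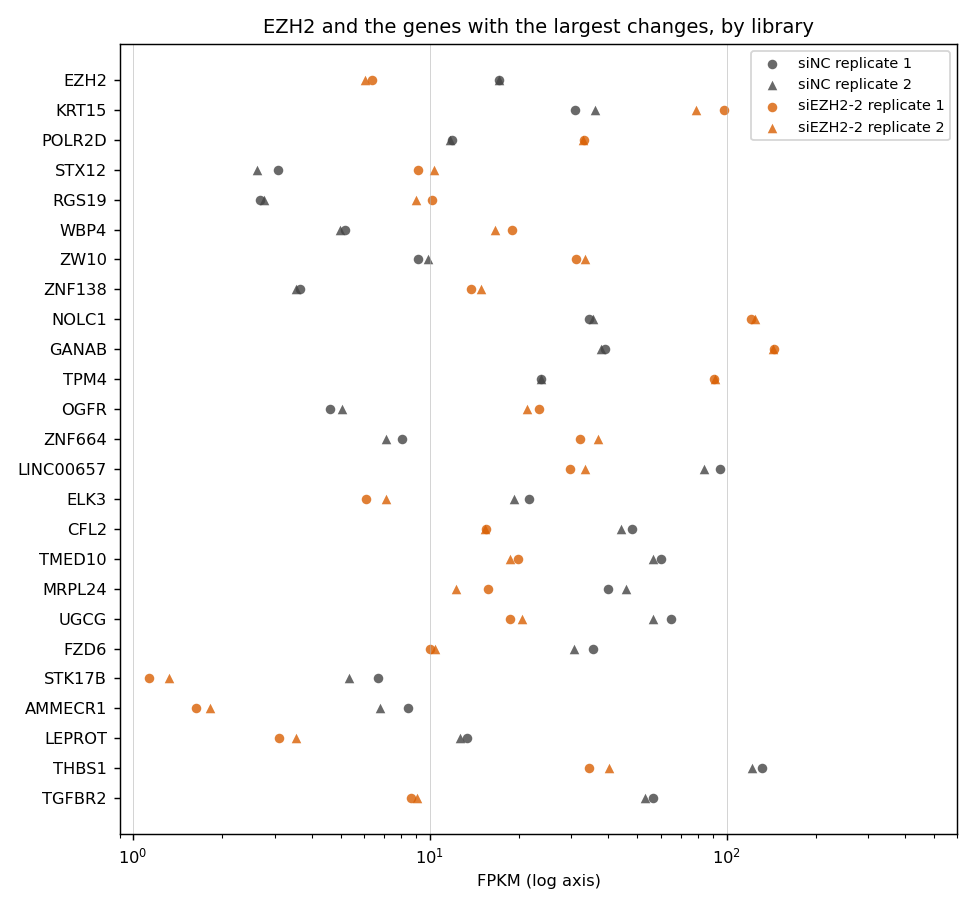
FPKM of EZH2 and of the 12 genes with the largest rise and the 12 with the largest fall, on a log axis, with 1 symbol per library (grey siNC, orange siEZH2-2, circles replicate 1, triangles replicate 2). Grey and orange symbols do not mix in any row, which the rule of choice required of every gene but EZH2. TGFBR2 shows the widest gap, from 8.66 and 9.07 FPKM with siEZH2-2 to 56.3 and 52.9 FPKM with siNC.

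The 2 siRNAs share a target, and a direct test of siEZH2-2 minus siEZH2-1 called 1883 genes (16.3% of genes tested), 857 higher with siEZH2-2 (7.4%) and 1026 lower (8.86%). This test does not use siNC but uses the siEZH2-2 libraries by which the 24 genes, and nearly all other genes named by rule, were chosen. Counts of differences among these genes therefore cannot be set against the share over all genes. Counts of this test in the gene lists below have a like limit, since the lists were chosen with earlier results of these data known. The shares of all genes beside those counts are a description and no test. Lists without such a count below had differences too, among them mesenchymal transition and matrix, with 10 of 37 lower than with siEZH2-1 and 4 higher. All 12 of the lowest genes were lower with siEZH2-2 than with siEZH2-1. TGFBR2 was at 40.6 and 37.8 FPKM with siEZH2-1, and the difference of -2.03 had an interval of -2.18 to -1.87 (adjusted p = 8.66e-05). LEPROT (-1.86), MRPL24 (-1.82), TMED10 (-1.60), FZD6 (-1.37), CFL2 (-1.18), THBS1 (-1.04) and STK17B (-1.01) differed by at least 1 log2 unit as well. Of the 12 highest genes, 4 differed between the siRNAs, namely ZNF664 (1.24), KRT15 (0.52), ZNF138 (0.42) and WBP4 (0.34), each higher with siEZH2-2. For the other 8 no difference passed. TPM4 stood at 99.2 and 98 FPKM with siEZH2-1, with a difference of -0.11 (interval -0.22 to 0.00), and OGFR at 21.3 and 24.7 FPKM, with a difference of -0.04 (interval -0.26 to 0.17). Of 168 genes named by rule, 81 differed between the siRNAs, against 51 and 52 when siEZH2-1 replicate 1 or 2 was left out and 50 with no filter on low values.

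The gene lists that follow are described by the number of members called and by their median. A number of 4 or more is given again for each left-out library, and for a fit with no filter on low values or other scaling, where that moves it by over 1.5 times. Each count of higher or lower members stands beside 13.9% and 10.9% of all genes. Named members were picked among called genes for their large changes, so that their groups lie apart follows largely from the choice. Over all genes, 62.8% had siEZH2-2 and siNC values that did not overlap. In PRC2, 4 of 14 tested members were higher (28.6%) and 2 were lower (14.3%), EZH2 among the latter, with a median fold change of 0.19 against 0.03 for all genes. RBBP4, a histone-binding subunit, was at 22.9 and 25.7 FPKM against 18 and 17 FPKM (0.45, adjusted p = 0.00588). Higher PRC2 genes numbered 2 on leaving out siEZH2-2 replicate 2 or either siNC replicate. In PRC1, 4 of 25 members were higher (16%) and 3 lower (12%), shares near those of all genes, with a median of -0.02. CBX2, a chromodomain reader of the methyl mark, rose from 4.78 and 4.95 FPKM to 7.87 and 7.52 FPKM (0.57), PCGF6 rose by 0.41, and RYBP, a subunit of variant complexes, fell from 5.82 and 5.16 FPKM to 2.97 and 3.21 FPKM (-0.66). The siEZH2-2 and siNC libraries of each did not overlap.

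Demethylases and the opposing trithorax proteins had 3 of 17 members higher and 0 lower. KDM6B, which removes the methyl mark that EZH2 places, was at 6.31 and 6.38 FPKM against 3.92 and 3.9 FPKM (0.58, adjusted p = 0.00435). SETD1A, a methyltransferase of lysine 4 of histone H3, rose by 0.45. Of 40 other methylation enzymes, 6 rose (15.0%) and 5 fell (12.5%), shares near the 13.9% and 10.9% of all genes. DOT1L, the methyltransferase of lysine 79, was at 5.86 and 5.99 FPKM against 3.39 and 3.21 FPKM (0.69), KDM2A rose by 0.68, and the demethylase KDM1B fell from 14.4 and 12.6 FPKM to 7.4 and 8.29 FPKM (-0.71). Higher enzyme genes numbered 3 on leaving out siNC replicate 2, and 2 on leaving out siEZH2-2 replicate 2 or siNC replicate 1 or with no filter on low values, and lower ones numbered 3 on leaving out siEZH2-2 replicate 2, siNC replicate 2 or either siEZH2-1 replicate or in a fit of the 4 libraries alone, 2 with no filter on low values, and 1 on leaving out siEZH2-2 replicate 1 or siNC replicate 1.

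Developmental regulators known as Polycomb targets, which are often silent, were mostly below the level tested, with 24 of 61 measured. Of these 3 rose and 5 fell (median -0.11). SOX2, a factor of basal squamous cells and stem cells, was at 8.5 and 7.22 FPKM against 4.92 and 4.77 FPKM (0.60, adjusted p = 0.00535), above both controls in each library. It also exceeded the level with siEZH2-1 by 0.64 (adjusted p = 0.00598). GATA3, a regulator of epithelial differentiation, fell from 3.83 and 4.13 FPKM to 2.3 and 2.14 FPKM (-0.63). Lower developmental regulators numbered 2 on leaving out siEZH2-2 replicate 1 or siNC replicate 2 or with no filter on low values. Of 39 HOX genes 13 were tested, with 1 higher and 4 lower, and every one of the HOX calls named by rule (HOXC13, HOXB4, HOXA5 and HOXB7) was lost in at least 1 alternative. Lower HOX genes numbered 1 on leaving out siEZH2-2 replicate 2 or either siNC replicate, and 0 with no filter on low values. Of 16 tested genes reported as repressed by EZH2 in carcinoma cells, 2 rose and 6 fell (median -0.15). The lower ones included CDKN1A, the cyclin-dependent kinase inhibitor p21, at 17.9 and 14.8 FPKM against 35.5 and 37.2 FPKM (-1.11, adjusted p = 6.33e-04), and DKK1, a secreted Wnt antagonist (-1.0). Lower EZH2-repressed genes numbered 3 on leaving out siEZH2-2 replicate 1 or siNC replicate 2.

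Of the cell cycle lists, the replication list had calls that were mostly higher, while the lists of entry genes and mitotic genes had calls in both directions. CCND1, cyclin D1 of the G1 phase, was at 38.5 and 43.2 FPKM with siEZH2-2 and 113 and 106 FPKM with siNC. The controls were far above both siEZH2-2 libraries, and the log2 fold change was -1.40 ± 0.0759 (adjusted p = 1.70e-04). With siEZH2-1 it was at 14.5 and 13.3 FPKM, which made siEZH2-2 higher by 1.49 (adjusted p = 1.78e-04). The kinase inhibitor CDKN1B, or p27, fell from 25.7 and 23.2 FPKM to 12.3 and 12.1 FPKM (-0.94, adjusted p = 4.74e-04). In the whole list of cyclin D, its kinases and inhibitors and the RB axis, 6 of 31 rose and 8 fell, with a median of 0.00. Higher cyclin and RB genes numbered 3 on leaving out siNC replicate 1 or with no filter on low values.

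Of 55 replication genes 25 were higher (45.5%, beside 13.9% of all genes) and 2 lower, with a median of 0.22 against 0.03 for all genes. The rises were small. UNG, which removes uracil from DNA, was at 67.4 and 64.7 FPKM against 44.6 and 46 FPKM (0.53 ± 0.0501, adjusted p = 9.51e-04). ORC6, a subunit of the origin recognition complex, was at 16.2 and 16.4 FPKM against 11.1 and 11.1 FPKM (0.52 ± 0.0524, adjusted p = 0.00116). In both genes the replicates lay close together and the groups were apart. TYMS, thymidylate synthase, rose by 0.33. PCNA, the sliding clamp of DNA polymerases, was at 260.3 and 254 FPKM against 198 and 198 FPKM (0.38), and GINS2, of the replicative helicase, at 29 and 27.8 FPKM against 20.6 and 19.7 FPKM (0.47). PCNA and GINS2 were picked after their values were seen, for the sequences below. The exceptions were POLE3, an accessory subunit of DNA polymerase epsilon, which fell from 81.2 and 86.5 FPKM to 47.1 and 48.7 FPKM (-0.80), and GINS1, which fell from 21.3 and 19.7 FPKM to 11 and 12.5 FPKM (-0.76). Both were also lower than with siEZH2-1, with differences of -0.86 and -0.92. Without siNC replicate 1 the count of higher genes was 15.

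Many replication genes are textbook E2F targets, and the promoters of a few members are shown for that reason. RefSeq windows on GRCh38.p14, running from 250 bases before to 50 after an annotated start, were found for 47 of the 55 genes, and the first window listed for each was searched. The E2F letters TTTCGCGC, TTTGGCGC, TTTCCCGC and TTTGCCGC, on either strand, stood in 19 of 47 windows (40.4%), against 3.31% of all 35116 windows in the RefSeq table. That table holds several windows for some genes and also genes not tested here, so these shares differ in unit and in gene set. Members called higher had the E2F letters in 9 of 22 windows (40.9%) and the remaining members in 10 of 25 (40.0%). Median GC content was 65.7% for the list and 58.7% for all windows. The pieces below are the windows without their last bases, each in the direction of the gene, 5′ to 3′, with the E2F letters in capitals. PCNA (chr20:5126603-5126872, minus strand) has them 59 bases before the start in the first of its 2 windows, and its second window holds none. GINS2 (chr16:85688935-85689204, minus strand) has them 31 bases before. UNG (chr12:109097922-109098191, plus strand) has them 63 bases before, in the second of its 2 windows. The first window of UNG, the one counted above, holds none, so its printed match cannot be set against a share of single windows. The piece of ORC6 (chr16:46689409-46689678, plus strand), whose fold change was 0.52 beside 0.53 for UNG, holds none of these letters.
PCNA: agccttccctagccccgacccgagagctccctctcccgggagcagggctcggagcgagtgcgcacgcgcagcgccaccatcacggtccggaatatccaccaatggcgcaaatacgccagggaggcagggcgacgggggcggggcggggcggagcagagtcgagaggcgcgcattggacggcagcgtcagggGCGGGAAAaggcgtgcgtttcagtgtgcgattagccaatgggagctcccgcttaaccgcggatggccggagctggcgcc
GINS2: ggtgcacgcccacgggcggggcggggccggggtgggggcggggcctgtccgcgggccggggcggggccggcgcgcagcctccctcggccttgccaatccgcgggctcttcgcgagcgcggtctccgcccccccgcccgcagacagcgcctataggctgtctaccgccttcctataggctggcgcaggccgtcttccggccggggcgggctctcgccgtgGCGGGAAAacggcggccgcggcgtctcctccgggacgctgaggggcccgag
UNG: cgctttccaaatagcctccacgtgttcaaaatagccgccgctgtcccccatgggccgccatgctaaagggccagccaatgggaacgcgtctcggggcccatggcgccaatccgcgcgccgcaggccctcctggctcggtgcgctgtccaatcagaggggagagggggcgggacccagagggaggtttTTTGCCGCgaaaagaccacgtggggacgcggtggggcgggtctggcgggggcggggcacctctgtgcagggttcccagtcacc
ORC6: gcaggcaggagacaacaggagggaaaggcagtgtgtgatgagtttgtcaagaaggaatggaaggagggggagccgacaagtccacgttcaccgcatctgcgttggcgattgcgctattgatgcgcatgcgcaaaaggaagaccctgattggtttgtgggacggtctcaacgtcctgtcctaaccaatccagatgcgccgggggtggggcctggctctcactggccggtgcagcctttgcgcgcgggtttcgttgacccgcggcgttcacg
A match is a run of letters and not a measured binding site.

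Genes of G2 and mitosis were divided, with 7 of 55 higher and 11 lower and a median of -0.02. ANLN, the actin-binding protein anillin of the cleavage furrow, was at 48 and 57.5 FPKM against 139 and 124 FPKM (-1.30, adjusted p = 5.53e-04). KIF23, a kinesin of the central spindle, was at 13.8 and 14.2 FPKM against 26.5 and 25.3 FPKM (-0.84, adjusted p = 2.89e-04). ZWINT, which binds ZW10 to the kinetochore, was higher in both siEZH2-2 libraries, at 49 and 47.6 FPKM against 29.6 and 29.2 FPKM (0.70, adjusted p = 3.32e-04). The 2 cytokinesis genes were thus lower and the 2 kinetochore partners ZW10 and ZWINT higher. Higher mitotic genes numbered 4 on leaving out either siNC replicate, and lower ones numbered 7 on leaving out siEZH2-2 replicate 1 or either siNC replicate or with no filter on low values.

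**Figure D2:**
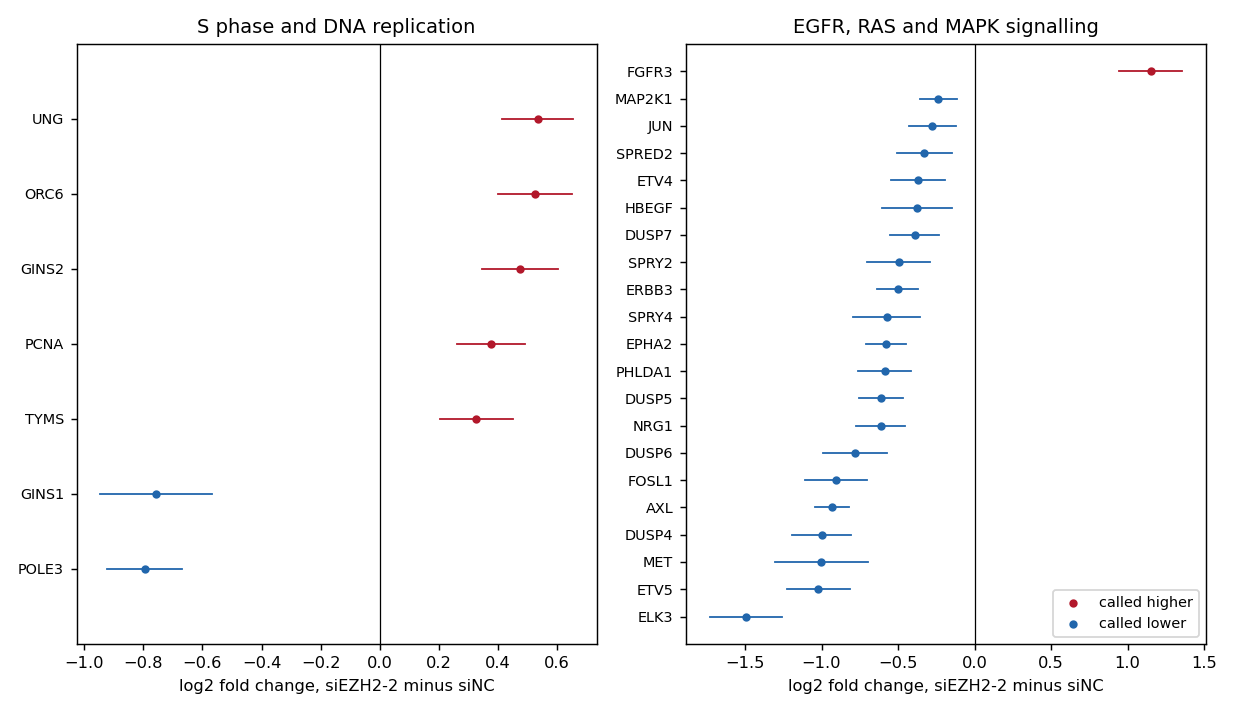
Log2 fold change, siEZH2-2 minus siNC, of the called members of 2 gene lists that the text names, with bars for the 95% interval of the fit over 6 libraries (red called higher, blue called lower). In the left panel POLE3 and GINS1 are blue and the other replication genes red, and in the right panel FGFR3 is red and the other signalling genes blue.

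Of 30 tested genes that p53 is known to induce, 3 rose and 12 fell, with a median of -0.25. Beside CDKN1A, the death receptor FAS fell from 7.84 and 7.48 FPKM to 3.91 and 3.81 FPKM (-0.83, adjusted p = 5.14e-04), and GADD45A, a stress protein, fell from 20.4 and 20.8 FPKM to 13 and 11.7 FPKM (-0.70, adjusted p = 0.00116). XPC, which recognises damaged DNA, rose from 4.04 and 4.18 FPKM to 7.11 and 7.05 FPKM (0.66, adjusted p = 9.53e-04). No library of one group entered the range of the other in these 3 genes, as in 62.8% of all genes tested. Lower p53-responsive genes numbered 6 with no filter on low values.

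DNA repair genes had 10 of 54 members higher and 1 lower (median 0.13). RAD54L, of homologous recombination, was at 17 and 16.9 FPKM against 11.3 and 11.8 FPKM (0.51, adjusted p = 0.00276), and XPC belongs here too. LIG4, the ligase of end joining, was the one lower, at 4.33 and 4.79 FPKM against 7.81 and 6.58 FPKM (-0.56), a call lost with no filter on low values (adjusted p = 0.0508, the highest of its alternatives). Higher DNA repair genes numbered 6 in a fit of the 4 libraries alone, 4 on leaving out siNC replicate 2, 3 on leaving out siEZH2-2 replicate 2 or siNC replicate 1, and 2 with no filter on low values.

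Apoptosis regulators had 6 of 32 higher (18.8%) and 4 lower (12.5%), beside 13.9% and 10.9% of all genes. MCL1, a BCL2 relative that protects cells, fell from 121 and 113 FPKM to 69.2 and 73.2 FPKM (-0.71, adjusted p = 0.0012). Its level also differed between the siRNAs, with siEZH2-2 minus siEZH2-1 at -0.46 (adjusted p = 0.00831). Higher apoptosis genes numbered 3 on leaving out either siEZH2-2 replicate or siNC replicate 2 or with no filter on low values, and 1 on leaving out siNC replicate 1.

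Many genes of signalling from receptor tyrosine kinases through RAS and MAPK were lower. Of 51 tested members 21 fell (41.2%, beside 10.9% of all genes) and 3 rose, with a median of -0.17. Among receptors, MET, which binds hepatocyte growth factor, was at 13.1 and 16.8 FPKM against 33.3 and 28.5 FPKM (-1.0 ± 0.127, adjusted p = 0.00269), and the 2 siEZH2-2 libraries lay well below both controls. FGFR3, a fibroblast growth factor receptor, rose from 5.24 and 5.65 FPKM to 13.4 and 13.2 FPKM (1.15 ± 0.0856, adjusted p = 4.17e-04). DUSP4, a phosphatase that feedback induces to switch off MAPK, was at 3.11 and 2.85 FPKM against 6.58 and 7.34 FPKM (-1.0, adjusted p = 5.55e-04), and ELK3 lies at the end of the same pathway. Apart from AXL, the remaining falls were named after their values were seen. They included the phosphatases DUSP5, DUSP6 and DUSP7, the inhibitors SPRY2, SPRY4 and SPRED2, the ligands HBEGF and NRG1, the receptors AXL, ERBB3 and EPHA2, the kinase MAP2K1, PHLDA1 and the factors ETV4, ETV5, FOSL1 and JUN. Both feedback inhibitors and forward components of the pathway were therefore among the genes that fell. FOSL1, an AP-1 subunit, was at 37.4 and 33.2 FPKM against 63.2 and 70.9 FPKM (-0.91). Against siEZH2-1 directly, 14 of the 51 were lower with siEZH2-2 and 5 were higher, beside 8.86% and 7.4% of all genes. Lower members numbered 15 to 20 with any 1 library left out.

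TGF-beta and BMP signalling had 2 of 30 members higher and 10 lower, with a median of -0.16. TGFBR2 led the list. Its promoter was looked at because this gene fell most, and of its 2 RefSeq windows the one with a match is printed. A match found by looking in both windows cannot be set against a share of single windows. The second window, printed here, covers chr3:30606351-30606620 on the plus strand of GRCh38.p14, again without its last bases. In it the AP-1 letters TGAGTCA, searched with TGACTCA on both strands and present in 4.95% of all windows, begin 6 bases before the start and are in capitals, and the first of the 2 windows holds neither.
TGFBR2: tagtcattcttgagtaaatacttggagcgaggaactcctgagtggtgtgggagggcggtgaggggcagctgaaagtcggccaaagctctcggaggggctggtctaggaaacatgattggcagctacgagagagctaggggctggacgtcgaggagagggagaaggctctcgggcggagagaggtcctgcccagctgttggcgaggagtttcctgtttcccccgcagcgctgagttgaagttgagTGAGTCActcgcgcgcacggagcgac
Of the feedback genes, FST, follistatin that traps activins, fell from 18.4 and 18.1 FPKM to 11.7 and 11.5 FPKM (-0.61, adjusted p = 7.07e-04), and SMURF2, a ubiquitin ligase for the receptors and SMADs, fell from 12.5 and 11.4 FPKM to 7.54 and 7.99 FPKM (-0.56, adjusted p = 0.00402). The groups did not overlap in either gene. Lower TGF-beta genes numbered 6 on leaving out siEZH2-2 replicate 2, 5 on leaving out siEZH2-2 replicate 1, 4 on leaving out siNC replicate 1, and 3 with no filter on low values.

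YAP and TAZ targets and their kinases had 2 of 28 higher and 10 lower (median -0.17). F3, tissue factor that starts coagulation, was at 133 and 135 FPKM against 309 and 282 FPKM (-1.13 ± 0.0591, adjusted p = 1.60e-04). AXL, a receptor kinase that also stands in the MAPK list, was at 45.9 and 46.9 FPKM against 89.7 and 88.9 FPKM (-0.93 ± 0.0462, adjusted p = 1.48e-04). CRIM1, a membrane protein that binds BMP ligands, was at 17.1 and 21.2 FPKM against 37.6 and 33.6 FPKM (-0.86). All 3 were lower in each siEZH2-2 library, and in the direct test 10 of 28 members were lower than with siEZH2-1 and 1 was higher, beside 8.86% and 7.4% of all genes. Lower YAP genes numbered 6 on leaving out siEZH2-2 replicate 1, and 5 on leaving out siNC replicate 1.

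In the Wnt pathway 2 of 31 members rose and 8 fell (median -0.07). Beside FZD6 and DKK1, PORCN, the enzyme that attaches the lipid Wnt ligands need for secretion, was at 4.67 and 4.48 FPKM against 9.53 and 10.9 FPKM (-1.01, adjusted p = 4.74e-04). DVL2, which relays the signal below the receptor, rose from 9.67 and 9.75 FPKM to 15.4 and 15.5 FPKM (0.62, adjusted p = 7.41e-04). These genes were named by rule for their large changes and do not stand for the other members of the pathway, as 21 of the 31 were not called. Lower Wnt genes numbered 5 with no filter on low values, and 4 on leaving out siNC replicate 2. For PI3K, AKT and mTORC1, 3 of 41 members rose and 7 fell, with a median of -0.03. AKT1 rose from 5.99 and 5.93 FPKM to 9.07 and 8.89 FPKM (0.52, adjusted p = 0.0043), while the kinase MTOR fell from 9.44 and 9.2 FPKM to 5.39 and 6.29 FPKM (-0.60, adjusted p = 0.00342). Lower PI3K and mTORC1 genes numbered 3 on leaving out siEZH2-2 replicate 1 or siNC replicate 1, and 2 with no filter on low values.

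Squamous identity changed in both directions. Of 46 tested basal and adhesion genes 9 rose and 18 fell, with a median of -0.13. KRT15 was the member that rose most. KLF5, a factor of basal epithelium, was at 9.04 and 10.5 FPKM against 16.7 and 15 FPKM (-0.65, adjusted p = 0.00421). Both siEZH2-2 libraries lay below both controls. Higher basal genes numbered 5 on leaving out siNC replicate 1. Lower basal genes numbered 11 on leaving out siEZH2-2 replicate 1 or siNC replicate 1, 10 on leaving out siNC replicate 2, and 7 with no filter on low values. In the direct test 12 of the 46 were higher with siEZH2-2 than with siEZH2-1 and 8 lower, beside 7.4% and 8.86% of all genes.

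Of 47 genes of terminal differentiation 18 were tested, with 3 higher and 6 lower (median -0.11). EMP1, an epithelial membrane protein, was at 19.9 and 20.7 FPKM against 48.3 and 45.3 FPKM (-1.16 ± 0.0655, adjusted p = 1.87e-04). PPL, periplakin of the cornified envelope, was at 18.1 and 18.1 FPKM against 25.4 and 26.8 FPKM (-0.51, adjusted p = 0.00141), and KRT80 fell as well (-0.62). No siEZH2-2 library of these genes reached a control. Lower differentiation genes numbered 3 on leaving out siEZH2-2 replicate 2 or either siNC replicate or with no filter on low values. Among the 12 squamous markers, 1 rose and 5 fell, CDH1 (E-cadherin) from 66.6 and 64.2 FPKM to 46.8 and 51.9 FPKM (-0.40, adjusted p = 0.00806). Lower squamous markers numbered 1 on leaving out siEZH2-2 replicate 2 or siNC replicate 2 or with no filter on low values. The summed FPKM of these markers was 1338 and 1242 with siEZH2-2 and 1399 and 1497 with siNC, lower in both siEZH2-2 libraries. Its part in the changes of other genes was not tested.

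Genes of mesenchymal transition and matrix had 7 of 37 higher and 13 lower, with a median of -0.12. THBS1 and TPM4 mark its ends. MMP1, the interstitial collagenase, rose from 1.89 and 2.39 FPKM to 5.62 and 4.61 FPKM (0.96, adjusted p = 0.00269). Higher mesenchymal genes numbered 4 on leaving out siEZH2-2 replicate 1 or siNC replicate 1, and lower ones numbered 8 on leaving out siEZH2-2 replicate 2 or siNC replicate 2, 7 on leaving out siEZH2-2 replicate 1 or with no filter on low values, and 5 on leaving out siNC replicate 1. Fibroblast markers summed to 1.53 and 1.5 FPKM with siEZH2-2 and 0.97 and 1.19 FPKM with siNC, and 4 of the 11 were at 0 in all libraries. The 1 tested, COL1A1, did not pass (0.28, adjusted p = 0.0951).

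Inflammatory genes moved both ways. Of 31 tested NF-kB genes and mediators 6 rose and 11 fell (median -0.16). SAA1, an acute phase protein, was at 4.71 and 4.1 FPKM against 11.2 and 13.8 FPKM (-1.32, adjusted p = 5.55e-04). TNFAIP2, induced by tumour necrosis factor, was at 8.35 and 9.04 FPKM against 17.2 and 18.7 FPKM (-0.97, adjusted p = 4.03e-04). TRAF3, a brake on the noncanonical branch, rose from 3.26 and 3.17 FPKM to 6.95 and 7.47 FPKM (0.96, adjusted p = 4.70e-04). The inhibitor gene NFKBIB rose as well (0.79). These genes were named by rule for their large changes, and they do not stand for the other targets and inhibitors of the list. Lower NF-kB genes numbered 7 on leaving out siNC replicate 1.

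Interferon-stimulated genes had 3 of 33 higher and 9 lower with small steps (median -0.06). DDX58, the RNA sensor RIG-I, was at 4.24 and 4.31 FPKM against 5.85 and 6.07 FPKM (-0.40, adjusted p = 0.00773). Lower interferon genes numbered 5 on leaving out siNC replicate 2, 4 with no filter on low values, 3 on leaving out siNC replicate 1, and 2 on leaving out siEZH2-2 replicate 1. HLA class I presentation had 4 of 21 higher and 0 lower, among them PSMB8, an immunoproteasome subunit, at 22.1 and 21.5 FPKM against 16.1 and 16.9 FPKM (0.38, adjusted p = 0.00703). Higher HLA class I genes numbered 2 on leaving out siEZH2-2 replicate 2, siNC replicate 2 or either siEZH2-1 replicate or in a fit of the 4 libraries alone, and 1 on leaving out siEZH2-2 replicate 1 or siNC replicate 1 or with no filter on low values. Immune markers summed to 1.54 and 1.3 FPKM with siEZH2-2 and 1.58 and 1.61 FPKM with siNC.

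In amino acid metabolism, 1 of 22 tested transporters rose and 4 fell, SLC7A5 among them. SLC43A2, which like LAT1 carries large neutral amino acids, was at 6.46 and 6.1 FPKM against 2.98 and 3.56 FPKM (0.77, adjusted p = 0.00173). SLC6A9, a glycine transporter, was at 3.92 and 3.49 FPKM against 5.58 and 5.35 FPKM (-0.46, adjusted p = 0.00682). The exchanger of cystine and glutamate, SLC7A11, named after its values were seen, was at 0.5 and 0.53 FPKM against 3.13 and 2.2 FPKM (-1.26). The siEZH2-2 libraries were the low ones for SLC6A9 and SLC7A11 and the high ones for SLC43A2. Lower transporters numbered 2 with no filter on low values. Of 36 genes of the amino acid response and ATF4, 2 rose and 8 fell (median -0.10). ASNS, asparagine synthetase, fell from 30.6 and 29.5 FPKM to 17.6 and 17.1 FPKM (-0.76, adjusted p = 9.30e-04) and was lower than with siEZH2-1 (difference -0.88, adjusted p = 7.78e-04). LONP1, a mitochondrial protease, rose from 23.6 and 26.1 FPKM to 45.9 and 41.7 FPKM (0.79, adjusted p = 0.00108). Lower ATF4 genes numbered 5 on leaving out siNC replicate 1, and 4 with no filter on low values.

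The aminoacyl-tRNA synthetases had 1 of 20 higher, KARS for lysine (0.37), and 4 lower, led by TARS for threonine (-0.46). Lower synthetases numbered 2 on leaving out siEZH2-2 replicate 1, and 1 on leaving out siEZH2-2 replicate 2 or either siNC replicate. Methionine, folate and polyamine genes had 4 of 33 higher (12.1%) and 3 lower (9.09%), shares near the 13.9% and 10.9% of all genes. MTRR, which reactivates methionine synthase, was at 4.79 and 5.61 FPKM against 10.9 and 10.1 FPKM (-0.90, adjusted p = 0.00116), below both controls. Higher methionine and folate genes numbered 2 on leaving out siEZH2-2 replicate 1 or either siNC replicate. Glutathione genes and NRF2 targets had 1 of 32 higher and 11 lower (median -0.05). TXNRD1, thioredoxin reductase, fell from 104 and 94.8 FPKM to 55.5 and 60.5 FPKM (-0.76, adjusted p = 8.87e-04), MAFF, a small MAF partner, fell too (-0.58), and ME1, malic enzyme, rose from 8.93 and 8.77 FPKM to 17 and 17.5 FPKM (0.89, adjusted p = 3.32e-04). Lower NRF2 genes numbered 7 on leaving out siNC replicate 2 or with no filter on low values.

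Sterol and fatty acid synthesis had 4 of 39 higher (10.3%) and 5 lower (12.8%), shares near the 13.9% and 10.9% of all genes. HMGCS1, which makes HMG-CoA, was at 15.1 and 13.6 FPKM against 32 and 29.5 FPKM (-1.05 ± 0.0843, adjusted p = 5.32e-04). TM7SF2, a sterol reductase, was at 17.8 and 15.9 FPKM against 7.03 and 8.96 FPKM (0.99 ± 0.11, adjusted p = 0.00163). ACLY, which supplies acetyl-CoA, and the fatty acid elongase ELOVL6 fell, with log2 fold changes of -0.58 and -0.57. HMGCS1, ACLY and ELOVL6 were also lower than with siEZH2-1, with differences of -1.22, -0.52 and -0.46. Higher sterol and lipid genes numbered 2 on leaving out siEZH2-2 replicate 1 or with no filter on low values, and 1 on leaving out siNC replicate 1. Sphingolipid enzymes had 3 of 34 higher and 9 lower, UGCG being the lowest. Lower sphingolipid enzymes numbered 4 on leaving out siEZH2-2 replicate 1 or either siNC replicate or with no filter on low values.

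Glycolysis and hypoxia genes had 5 of 41 higher and 8 lower (median -0.06). HIF1A, the oxygen-regulated factor, was at 16.7 and 18.8 FPKM against 34.1 and 30.9 FPKM (-0.84, adjusted p = 0.00185). Among the phosphofructokinases, the platelet form PFKP fell from 107 and 115 FPKM to 68.6 and 64.2 FPKM (-0.73, adjusted p = 6.30e-04) and the liver form PFKL rose from 9.91 and 10.9 FPKM to 18.5 and 17 FPKM (0.72, adjusted p = 0.00128). PFKFB3, which makes their activator, fell (-0.74). Higher glycolysis genes numbered 3 on leaving out siNC replicate 2, 2 on leaving out siEZH2-2 replicate 1 or with no filter on low values, and 1 on leaving out siNC replicate 1. Lower glycolysis genes numbered 5 on leaving out siEZH2-2 replicate 1 or siNC replicate 1 or with no filter on low values.

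Of 43 chaperones, glycan-trimming enzymes and genes of the unfolded protein response, 4 rose (9.30%) and 6 fell (14.0%), shares near the 13.9% and 10.9% of all genes. GANAB was the highest. XBP1, a factor of that response, was at 14.3 and 13.6 FPKM against 25.8 and 26 FPKM (-0.84, adjusted p = 2.89e-04). HSPA5, the chaperone BiP, was at 185 and 181 FPKM against 248 and 259 FPKM (-0.47, adjusted p = 0.00201). In both genes each siEZH2-2 library was below each control. Higher chaperone and response genes numbered 2 on leaving out siNC replicate 1, and lower ones numbered 3 on leaving out siEZH2-2 replicate 1 or either siNC replicate. Of 56 genes of transport between the endoplasmic reticulum and the Golgi 11 rose and 5 fell. GOLGA2, the matrix protein GM130, was at 18 and 18.3 FPKM against 7.38 and 7.95 FPKM (1.14, adjusted p = 1.60e-04). SEC23A, a coat protein of vesicles leaving the endoplasmic reticulum, fell from 14.7 and 12.4 FPKM to 6.77 and 8.11 FPKM (-0.79, adjusted p = 0.00526), yet exceeded its level with siEZH2-1, 2.86 and 2.4 FPKM. Higher transport genes numbered 7 on leaving out siEZH2-2 replicate 2, 6 on leaving out siNC replicate 2, and 4 on leaving out siEZH2-2 replicate 1 or siNC replicate 1 or with no filter on low values.

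In autophagy and the lysosome 5 of 41 genes rose (12.2%) and 6 fell (14.6%), shares near the 13.9% and 10.9% of all genes. ULK1, the kinase that starts autophagy, rose from 2.83 and 3.12 FPKM to 5.92 and 5.57 FPKM (0.76, adjusted p = 0.00102), WIPI2 rose by 0.53, and MAP1LC3B, which coats autophagosomes, fell from 9.94 and 9.75 FPKM to 7.13 and 6.44 FPKM (-0.48, adjusted p = 0.00435). Higher autophagy genes numbered 3 on leaving out siEZH2-2 replicate 1 or siNC replicate 2, and lower ones numbered 3 on leaving out siEZH2-2 replicate 1 or siNC replicate 1 or with no filter on low values. Of 29 genes of small RNA silencing, the machinery that siRNAs themselves use, 2 rose (6.9%) and 3 fell (10.3%), beside 13.9% and 10.9% of all genes. AGO2, the slicing Argonaute, was at 5.16 and 5.77 FPKM against 9.51 and 8.35 FPKM (-0.62, adjusted p = 0.00408), and its partner TNRC6A was at 7.9 and 9.49 FPKM against 19.2 and 17.6 FPKM (-1.0, adjusted p = 0.00145). The decapping enzyme DCP2 rose from 7.42 and 6.43 FPKM to 12.8 and 15.4 FPKM (0.93, adjusted p = 0.00315). Against siEZH2-1 the differences of AGO2 (-0.24, adjusted p = 0.113) and TNRC6A (0.32, adjusted p = 0.09) did not pass. DCP2 was higher than with siEZH2-1 by 1.29 (adjusted p = 0.0014).

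Genes of the translation machinery and of histones showed few large changes. Of 77 ribosomal protein genes 3 rose and 0 fell, with a median of 0.09, and pseudogene copies may share their reads. Higher ribosomal protein genes numbered 7 after quantile normalization, 1 on leaving out siEZH2-2 replicate 2, and 0 on leaving out siEZH2-2 replicate 1 or either siNC replicate or with no filter on low values. Mitochondrial ribosomal proteins had 15 of 72 higher and 1 lower, MRPL24 (median 0.08). Higher mitochondrial ribosomal genes numbered 7 on leaving out siNC replicate 2, 3 with no filter on low values, and 2 on leaving out siEZH2-2 replicate 1 or siNC replicate 1. Replication-dependent histones, whose near-identical copies may split reads, had 4 of 21 higher and 0 lower, among them HIST1H2BD at 8.88 and 8.6 FPKM against 4.09 and 5.19 FPKM (0.79, adjusted p = 0.00314). HIST1H2BJ was at 8.41 and 7.28 FPKM against 4.21 and 4.96 FPKM (0.66), and 9 of the 21 histones were lower than with siEZH2-1 and 0 higher, beside 8.86% and 7.4% of all genes. Higher histone genes numbered 2 on leaving out either siEZH2-2 replicate or siNC replicate 1 or with no filter on low values. Of 15 mitochondrial transcripts 2 passed, both higher, and the median was 0.26. Higher mitochondrial transcripts numbered 11 on leaving out siEZH2-2 replicate 2, 4 after quantile normalization, 1 on leaving out siNC replicate 1, and 0 on leaving out siNC replicate 2 or with no filter on low values. Their share of all FPKM was 10.5% and 9.06% with siEZH2-2 and 8.43% and 8.37% with siNC, higher in both siEZH2-2 libraries. Its part in the changes of other genes was not tested. The bar plot of the lists sets these counts beside the shares of all genes.

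**Figure D3:**
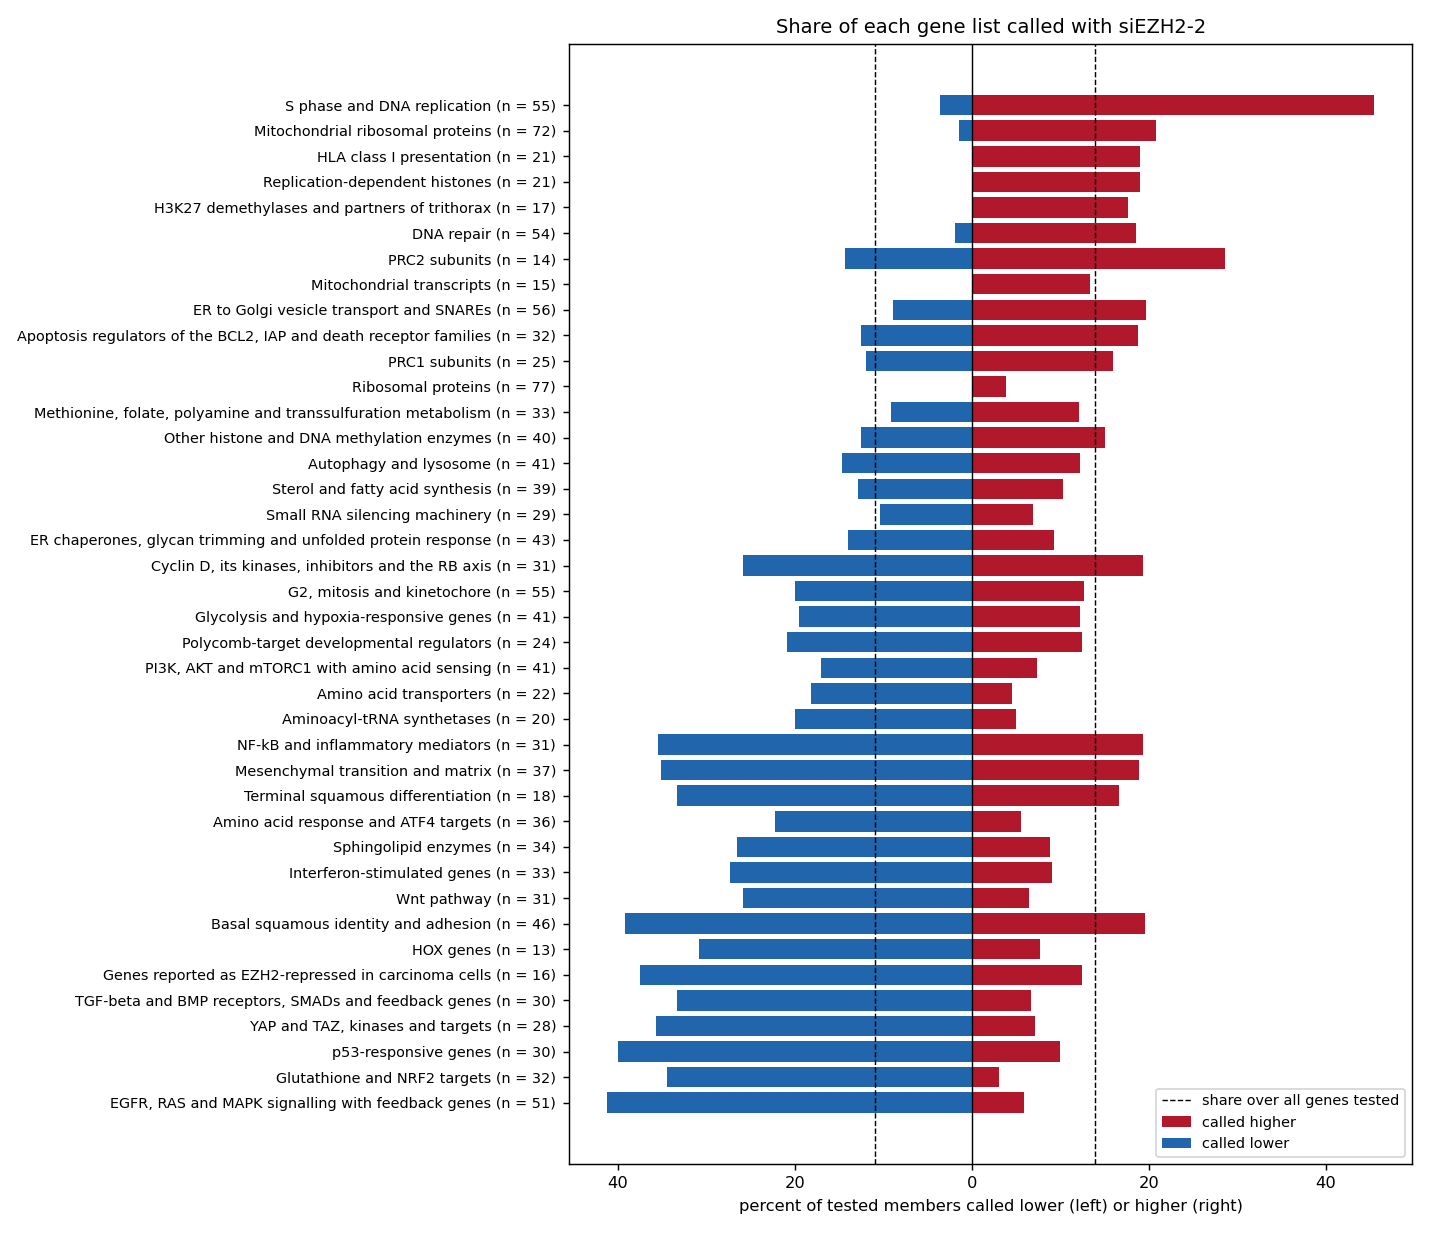
Percent of the tested members of each gene list called higher (red, right) and lower (blue, left) with siEZH2-2, with n the members tested. Dashed lines mark the shares over all genes, 13.9% and 10.9%. Replication genes reach 45.5% on the right and MAPK genes 41.2% on the left.

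Zinc finger genes named ZNF with a number, most of them encoding DNA-binding proteins of the Krüppel type, were examined after their values were seen, since ZNF664 and ZNF138 lay among the highest genes. Of 301 tested, 121 were higher (40.2%) and 5 lower (1.66%), with a median of 0.21, beside 13.9% and 10.9% of all genes. Many have close relatives in the genome, between which counting could split reads. Many human ZNF genes sit in clusters on chromosome 19. The 111 on that chromosome had 47 higher (42.3%) and 0 lower, and the 190 elsewhere had 74 higher (38.9%) and 5 lower. Of 622 other genes on chromosome 19, 119 were higher (19.1%) and 32 lower (5.14%). The median fold change of ZNF genes with siEZH2-1 was 0.18, against the same siNC libraries. They were expressed at a lower level than most, with a median log2(FPKM + 1) of 2.24 against 3.12 for all genes. Higher ZNF genes numbered 78 on leaving out siNC replicate 1, 74 on leaving out siEZH2-2 replicate 2, 72 on leaving out siNC replicate 2, and 70 with no filter on low values. Lower ZNF genes numbered 3 on leaving out siEZH2-2 replicate 1 or either siEZH2-1 replicate or in a fit of the 4 libraries alone, 2 on leaving out siEZH2-2 replicate 2, and 1 on leaving out either siNC replicate or with no filter on low values.

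**Figure D4:**
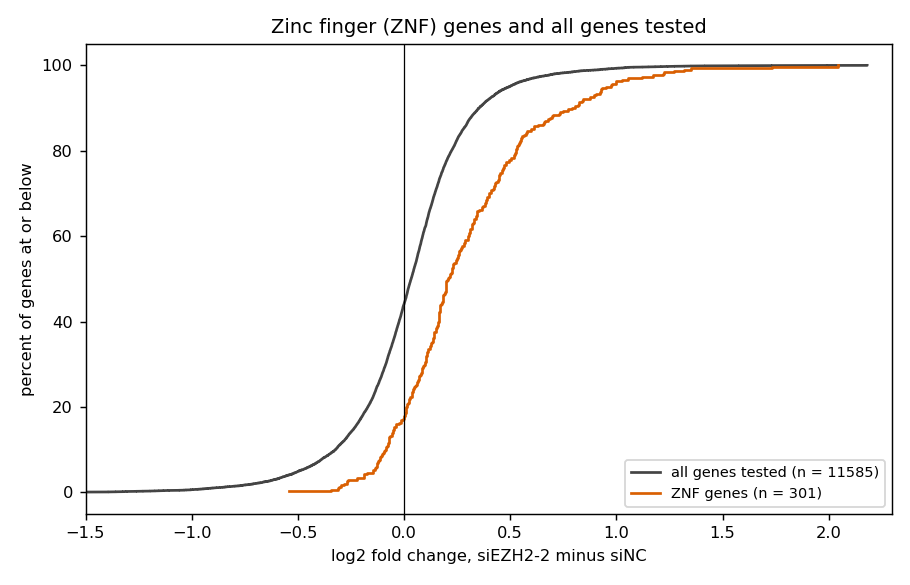
Cumulative percent of genes (y axis) at or below each log2 fold change, siEZH2-2 minus siNC (x axis), for all 11585 genes tested (grey) and for 301 ZNF genes (orange). The orange line lies to the right of the grey line, with medians of 0.21 and 0.03.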

How the data were processed

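RNA sequencing libraries of KYSE510 cells were read from 1 table deposited by the authors, with 1 column of FPKM values per library and no counts. FPKM is a count scaled by gene length and library depth, and the unit was taken from the values. Builds hg38 and hg19 and the tools STAR, Trim Galore, Bowtie, Picard, Bowtie2 and SEACR stand in the submitters' processing notes, with no word on which of them led to this table. The counter, the gene models and the strand setting are not given in the sources used here, so overlapping and antisense genes cannot be told apart. The LAT1 libraries and the EZH2 CUT&Tag samples were not analysed here.

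The design called for a count test if counts were held, and FPKM values were held, so limma-trend was used. Genes whose mean over 6 libraries (3 groups of 2) reached 1 FPKM were kept, log2(FPKM + 1) was computed with a pseudocount of 1, and limma 3.58.1 in R 4.3.3 was fitted with 1 mean per group and 3 residual degrees of freedom. Contrasts were siEZH2-2 minus siNC and siEZH2-2 minus siEZH2-1, two-sided, with Benjamini-Hochberg adjustment over 11585 genes and a threshold of 0.05. Intervals are at 95%. With 2 libraries against 2 an exact permutation test cannot pass that threshold, so calls rest on a spread pooled across genes. The procedure was tested on simulated data. Depth was estimated from FPKM steps, with 88.5% to 91.6% of low values whole within 0.12 reads, where a fixed depth would give 24% by chance. Pooled over genes, the precision is limited by the 2 libraries per group. Summaries and plots used Python 3.11.15, pandas 2.3.3, numpy 2.4.6 and matplotlib 3.10.9.

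The members, the 44 gene lists and the rules were chosen with earlier results of these data known. Of 1672 listed symbols 1670 were found and 1335 tested. Genes are named by rule: EZH2, SLC7A5 and SLC3A2, the 12 highest and 12 lowest fold changes among called genes that average 2 or more on the log2 scale and show no overlap between groups, and up to 4 called members per list, of which a few are not reported here. Any other named gene is said to have been picked with its values known. The alternatives tried were quantile normalization, a filter at 5 FPKM or none, a pseudocount of 0.1, a fit of the 4 libraries compared, a replicate block, a minimum log2 fold change of 1 and each library left out in turn. Chromosomes were known for 10947 genes from RefSeq (GRCh38.p14), and promoter windows for 8647 of the tested genes, too few for shares over all called genes. No miRNA, guide or siRNA sequence is printed.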

Additional observations from a re-analysis of the deposited data

How the results depend on the processing

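No called or named gene changed sign in any alternative. Of 168 named genes, 112 kept their calls in all alternatives except the test of a minimum log2 fold change of 1. That test called 8 genes, 7 higher and 1 lower, and 4 named genes between the siRNAs, and EZH2 did not pass it, with its fold change still -1.32. With no filter on low values 1554 genes were called, 853 higher and 701 lower, over 29763 genes tested, and 50 named genes differed between the siRNAs. A pseudocount of 0.1 gave 153 called genes higher and 134 lower by at least 1 log2 unit, and a filter at 5 FPKM, which tests fewer genes, gave 45 higher by as much. Leaving out each library in turn gave 1445 to 2479 calls, 764 to 1369 higher and 681 to 1111 lower, with 72 to 84 higher and 68 to 89 lower by at least 1 unit. Named genes that differed between the siRNAs numbered 51 to 74 when a library was left out. Library values for a left-out replicate assume that a lone library varies like the others. Quantile normalization gave 2889 calls, 1487 higher and 1402 lower, a higher share of 51.5% against 56.2%, and moved the median of all genes from 0.03 to 0.01. Except where stated, the causes were not tested.

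Replicate numbers are shared between groups, and no label says that they pair libraries. Deviations of same-numbered libraries correlated at -0.35, 0.35 and -0.34 for siEZH2-1 with siEZH2-2, siEZH2-1 with siNC and siEZH2-2 with siNC, so the numbers as given were not taken as pairs. With the numbers of siEZH2-2 exchanged all 3 would be positive, and whether these numbers are crossed is not known. With the replicate number as a block, 1999 genes were called, 1074 higher and 925 lower. A block with the numbers of siEZH2-2 crossed, chosen after seeing the data, called 5695 genes, 3218 higher and 2477 lower. Depth is an estimate and entered no test.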

Other observations

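The calls were not spread evenly over gene properties that no list used. Genes were sorted into 4 groups of equal size by the span of the RefSeq gene. From the shortest to the longest group, 14.1%, 17.2%, 15.8% and 9.76% of genes were higher with siEZH2-2, and 7.82%, 10.6%, 12.6% and 14.0% were lower. The longest group was the one with more lower than higher genes, with a median fold change of -0.03 against 0.07 in the shortest. The same groups had medians of -0.07 and 0.10 with siEZH2-1, which was compared with the same siNC libraries. By level, the lowest of 4 groups had 10.2% higher and 5.76% lower genes and the highest group 15.3% and 13.8%. Chromosome 19 had 22.6% of 733 genes higher and 4.37% lower, and chromosome 10 had 18.0% of 444 genes lower. Among 397 long noncoding RNA genes 13.6% were higher and 5.79% lower, with a median of 0.09. These are descriptions, and no test was made of them.

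A pair of genes with changes as large as those named in the report fell outside the rule because their average level was low, and they were picked after their values were seen. The microRNA gene MIR23A was listed at 0.53 and 0 FPKM with siEZH2-2 and 2.83 and 3.45 FPKM with siNC (-1.74, adjusted p = 0.00342 by limma). In a gene this short such values stand for only a few reads per library, so this change is uncertain, and the level of the mature microRNA was not measured. AC083906.2, a gene known here by its clone name, had the highest fitted change of all genes tested, at 3.52 and 3.55 FPKM with siEZH2-2, and was listed at 0 in both siNC libraries, so no fold is given.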
